A study of Homo sapiens with 6 samples.

Results

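The 42 genes described here encode proteins of homologous recombination, Fanconi crosslink repair, mismatch repair, base excision and single-strand break repair, nucleotide excision repair, and the checkpoint kinases that act beside them. They were chosen by name from the 19503 named genes of the deposited table, and all 42 were found there. RNA was sequenced from HLE cells, an established human hepatocellular carcinoma line with poorly differentiated features. Every group carried a lentivirus delivered at a multiplicity of infection of 10 and was kept under puromycin for 7 days. The control group expressed a control shRNA. The groups named kd.1 and kd.2 each expressed 1 of 2 shRNAs that target separate coding sites of ZNF281, a zinc finger transcription factor known to bind G-rich promoter DNA. Each group had 2 libraries, and nothing in the labels tells separate cultures from repeat libraries, so the p-values rest on how far these libraries differ and that spread may be technical. The labels name 1 selected line per shRNA, so an shRNA and its line cannot be told apart.

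These pathways divide the work of repair by lesion. Homologous recombination resects a broken end and copies the intact sister strand, with BRCA2 among the proteins that prepare the end. Fanconi proteins recognise a stalled fork at an interstrand crosslink, ubiquitinate the FANCI and FANCD2 pair and hand the lesion to nucleases. Mismatch repair removes replication errors, base excision repair removes single damaged bases through a glycosylase, a nick and a ligase, and nucleotide excision repair cuts out a bulky adduct between a 5′ and a 3′ incision. Many of these genes are known to be expressed most in cycling cells.

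Levels are given in FPKM, fragments divided by transcript length and by the library's total, and the depth behind each value is unknown. Differences were tested on log2(FPKM + 0.1) with limma across 10851 genes, and calls were made where the p-value, adjusted by Benjamini-Hochberg over all of them, lay under 0.05. ZNF281 measured 9.52 and 8.43 FPKM in the control libraries, 4.35 and 4.71 in kd.1, and 4.37 and 4.47 in kd.2. Its log2 change was -0.97 (SE 0.09, limma adjusted p = 0.000249) in kd.1 and -1.0 (SE 0.09, limma adjusted p = 0.000241) in kd.2, and it was called in every alternative run. The FPKM of all features summed to between 512672.6 and 575886.9 per library. Over all tested genes, the log2 difference within a pair of duplicates had an SD of 0.245 in control, 0.147 in kd.1 and 0.137 in kd.2, and the control pair was the most spread. Of 11 hepatocyte markers 8 were in the table, 3 of them reached 1 FPKM in at least 2 libraries, 5 stayed under 0.5 FPKM throughout, and the rest were not analysed here. CPS1, a urea cycle enzyme of hepatocytes, was the highest of them and reached 466 FPKM. Markers of other cell types were not all silent: 3 of 6 fibroblast markers (LUM highest, up to 211 FPKM), 2 of 6 leukocyte markers (CD68, up to 32.5 FPKM) and 1 endothelial marker (CDH5, up to 2.42 FPKM) reached 1 FPKM. The summed levels of these lists differed between some groups, with 1 to 3 genes tested per list. Their calls were not rerun in the alternatives. Of all tested genes 29.2% were called in kd.1, 37.9% in kd.2 and 32.2% between the lines. The summed FPKM of the hepatocyte list was 294 and 264 in control, 454 and 471 in kd.1, and 314 and 330 in kd.2; 2 of its 3 tested genes rose in kd.1 and 2 were lower in kd.2 than in kd.1. The fibroblast list summed to 284 and 270, 302 and 282, and 233 and 232 FPKM, with 2 of 3 tested genes higher in kd.1 and 1 lower in kd.2. The leukocyte list summed to 27.1 and 23.5, 31.9 and 32.6, and 31.2 and 33.7 FPKM. Of its 2 tested genes 1 rose in kd.1, and 1 rose and 1 fell in kd.2. The endothelial list summed to 3.03 and 2.54, 1.24 and 1.47, and 1.23 and 1.43 FPKM, its 1 tested gene falling in both lines. The part of these lists in the repair gene results was not tested.

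All 42 genes passed the filter of 1 FPKM in at least 2 libraries, and 41 reached 1 FPKM in all 6. APEX1, the endonuclease that nicks abasic sites, was the highest, with 195 to 223 FPKM over the 6 libraries. DDB1, a damage-recognition subunit, had 83.0 to 111 FPKM, and PARP1, the poly(ADP-ribose) polymerase that senses strand breaks, had 59.1 to 100.01. BRCA2, a mediator of recombination, was the lowest with 0.84 to 1.86 FPKM, followed by NEIL1, a glycosylase, with 1.40 to 2.02 FPKM. The summed FPKM of the 42 genes was 1140 and 1110 in control, 1130 in each kd.1 library and 1040 in each kd.2 library, so the kd.2 sums lay below all others in FPKM as deposited. Per 1000 FPKM of the library's own total the sum was 2.16 and 1.93 in control, 2.16 in each kd.1 library, and 2.0 and 2.04 in kd.2, and the kd.2 libraries then lay between the controls.

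**Figure D1:**
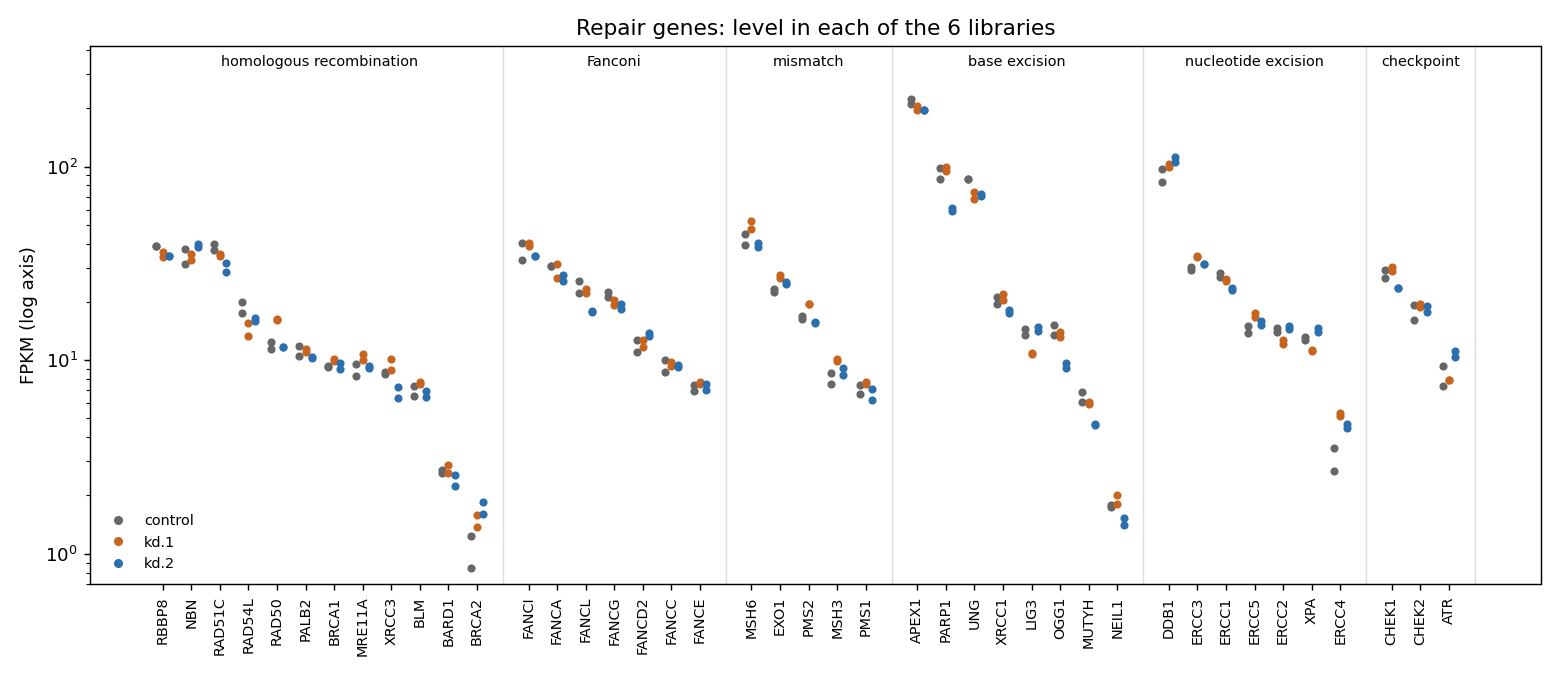
FPKM (log axis) of each of the 42 repair genes in each of the 6 libraries, 1 point per library, coloured by group and ordered within each pathway by level. APEX1 stands highest at 195 to 223 FPKM and BRCA2 lowest at 0.84 to 1.86 FPKM, and for most genes the 3 groups lie close together.

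In kd.1, 12 of the 42 genes (28.6%) were called, 7 higher and 5 lower, where 29.2% of all tested genes were called, 15.8% higher and 13.4% lower. In kd.2, 14 (33.3%) were called, 4 higher and 10 lower, against 37.9% of all tested genes, 15.7% higher and 22.2% lower. Directly between the lines (kd.2 against kd.1), 15 (35.7%) were called, 4 higher in kd.2 and 11 lower, against 32.2% of all tested genes, 11.9% higher and 20.3% lower. For the mean of both lines against control, 15 (35.7%) were called, 6 higher and 9 lower, against 34.7% of all, 16.1% higher and 18.6% lower. The repair genes as a whole were therefore called at close to the background rate in each comparison. The median log2 change of the 42 was 0.07 in kd.1 and -0.08 in kd.2, beside 0.02 and -0.03 over all tested genes, and 41 of 42 in kd.1 and 38 of 42 in kd.2 lay within 0.5 log2 units of 0. Both contrasts against control share the same 2 control libraries.

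These counts moved with the libraries kept and with the scaling. Without control replicate 1 they were 21 in kd.1, 22 in kd.2, 23 between the lines and 24 for the mean. Without control replicate 2 the count between the lines was 23 and that of the mean 9. Without a kd.1 library (replicate 1, then 2) they fell to 3 and 4 in kd.1, 6 and 8 between the lines, and 4 and 6 for the mean. Without a kd.2 library they fell to 4 and 4 in kd.1, 3 and 4 in kd.2, 4 and 6 between the lines, and 5 and 3 for the mean. Scaled to a common FPKM sum the calls were 8 higher and 0 lower in kd.1, 4 and 5 in kd.2, and 8 and 2 for the mean. Scaled by the median ratio they were 8 higher and 6 lower in kd.2, 6 and 7 between the lines, and 7 and 6 for the mean. Calls kept in every alternative and without any single library were RAD50 and ERCC4 in kd.1, OGG1 and PARP1 in kd.2, RAD50, OGG1, PARP1 and LIG3 between the lines, and UNG, OGG1 and ERCC4 for the mean. In bulk RNA, fewer cells that express a gene and less of its RNA per cell cannot be told apart.

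**Figure D2:**
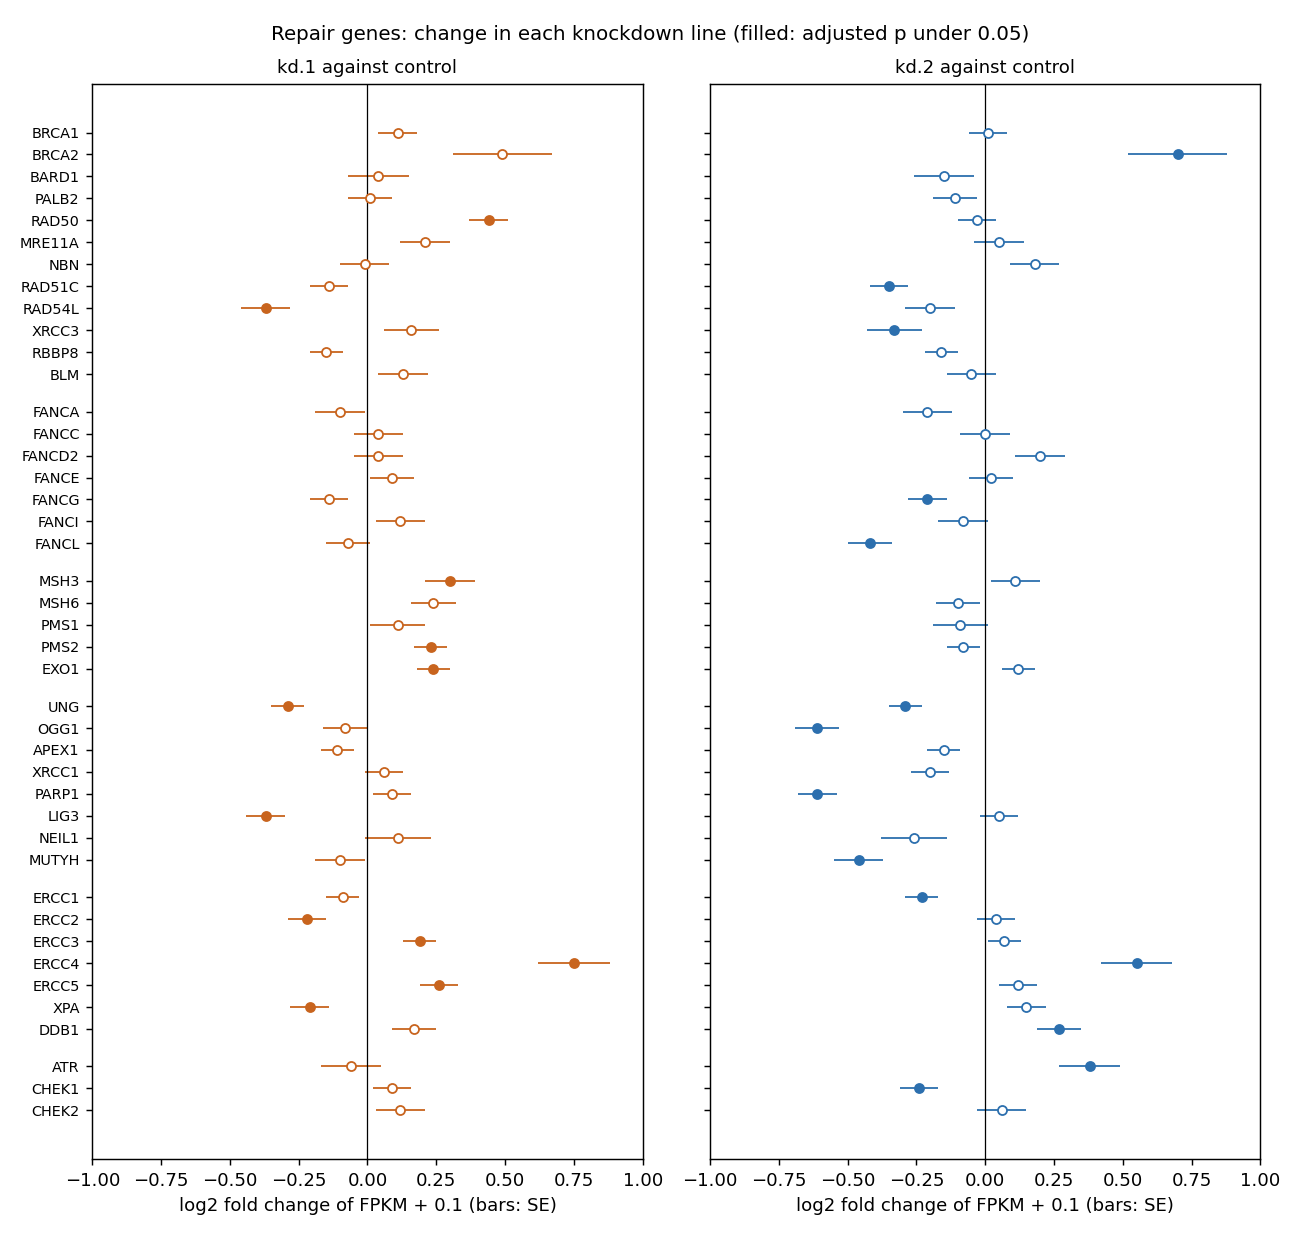
Log2 fold change of FPKM + 0.1 for each of the 42 repair genes, grouped by pathway, in kd.1 against control (left) and kd.2 against control (right), with bars for the limma SE and filled points for an adjusted p under 0.05. ERCC4 stands highest in kd.1 at 0.75, and OGG1 and PARP1 stand lowest in kd.2 at -0.61 each.

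Only UNG and ERCC4 were called with the same sign in both lines, UNG lower and ERCC4 higher. UNG encodes the uracil-DNA glycosylase that opens base excision repair at deaminated or misincorporated bases. ERCC4 encodes XPF, the catalytic subunit of the XPF-ERCC1 endonuclease that makes the 5′ incision in nucleotide excision repair and also acts at crosslinks. The promoters of both are shown because these genes moved in both lines, that of PARP1 because it differed most between lines, and that of RAD54L because it is a called member with a G-rich match and no annotated exon in the window. The sequences are from RefSeq on GRCh38.p14, start 250 bases before the annotated start and read in the direction of transcription, that of UNG stopping where an annotated exon begins. Capitals mark a match to GGGAGGGG on either strand.
UNG, chr12:109097347-109097573, plus strand: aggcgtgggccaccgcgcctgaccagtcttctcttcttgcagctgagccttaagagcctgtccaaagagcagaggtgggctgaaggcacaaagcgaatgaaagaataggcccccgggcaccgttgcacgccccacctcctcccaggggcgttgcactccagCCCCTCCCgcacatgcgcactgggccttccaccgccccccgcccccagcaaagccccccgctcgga
ERCC4, chr16:13919904-13920153, plus strand: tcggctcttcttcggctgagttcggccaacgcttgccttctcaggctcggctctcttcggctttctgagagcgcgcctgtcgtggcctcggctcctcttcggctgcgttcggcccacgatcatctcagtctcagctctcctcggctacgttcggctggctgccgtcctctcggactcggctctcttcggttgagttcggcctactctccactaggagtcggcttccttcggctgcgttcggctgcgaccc
PARP1, chr1:226408094-226408343, minus strand: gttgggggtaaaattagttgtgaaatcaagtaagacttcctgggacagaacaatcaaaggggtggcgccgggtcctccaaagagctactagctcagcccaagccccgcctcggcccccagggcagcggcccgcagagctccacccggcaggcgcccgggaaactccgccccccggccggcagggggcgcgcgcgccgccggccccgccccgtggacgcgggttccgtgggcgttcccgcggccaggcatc
RAD54L, chr1:46247438-46247687, plus strand: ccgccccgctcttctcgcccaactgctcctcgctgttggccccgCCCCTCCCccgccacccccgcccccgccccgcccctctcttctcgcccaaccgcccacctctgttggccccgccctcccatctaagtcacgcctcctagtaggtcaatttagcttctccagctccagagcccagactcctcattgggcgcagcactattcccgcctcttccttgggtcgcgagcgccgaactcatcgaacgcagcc

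A RefSeq promoter was matched for 40 of the 42 genes. The 8-base motif GGGAGGGG, searched on both strands as a G-rich core of the kind ZNF281 is known to bind, lay in the 250 bases before the start of 9 of these 40 (22.5%). It lay in 17.1% of the promoters of 8940 tested genes and in 13.0% of all 27305 promoters. The E2F-type motif TTTNNCGC, searched in the same way, lay in 5 of 40 (12.5%), in 9.69% of the tested genes' promoters and in 5.93% of all; the motifs do not overlap in their letters. Of the genes whose promoters are printed, UNG and RAD54L hold 1 G-rich match each, RAD54L having been picked for it, and ERCC4 and PARP1 hold none. A G-rich match lay before 3 of the 9 genes called lower for the mean of the lines, 1 of the 6 called higher (ERCC5) and 5 of the 25 not called. A match is a description of letters in this window and not of a bound site.

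Among the 42 genes, those that fell furthest belonged to base excision and single-strand break repair. In kd.2, 4 of the 8 genes fell and none rose, and 7 of 8 had both kd.2 libraries below both control libraries, an arrangement seen in 39.9% of all tested genes. Of all tested genes 22.2% fell in kd.2, 13.4% in kd.1 and 18.6% for the mean, and 20.3% were lower in kd.2 than in kd.1. In kd.1, 2 of 8 fell and none rose, and for the mean of both lines 4 fell (2 under a common FPKM sum, and 2 or 3 without any 1 of the kd.1 and kd.2 libraries). The median log2 change of the 8 was -0.27 in kd.2 and -0.09 in kd.1. Between the lines 5 of 8 were lower in kd.2 and 1 higher, and 2 lower and 1 higher after median ratio scaling. Scaled to a common FPKM sum, 3 fell in kd.2 and none in kd.1. Without control replicate 1 more falls were called in both lines, and calls in kd.1 then went both ways, PARP1 being higher. The median of the 8 in kd.1 was then -0.16. Fewer falls were called in kd.2 when either kd.2 library was left out. Without either kd.1 library 1 fell in kd.1, and without any 1 of the kd.1 and kd.2 libraries 2 genes were lower and 1 higher between the lines. Of the 14 other genes of this pathway, 1 rose and 4 fell in kd.2, with a median log2 change of -0.01.

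PARP1 measured 98.0 and 85.9 FPKM in control, 95.4 and 100.01 in kd.1, and 59.1 and 60.8 in kd.2. The kd.1 libraries overlapped the controls, and both kd.2 libraries lay far below all others. PARP1 fell 1.53-fold in kd.2, a log2 change of -0.61 (SE 0.07, limma adjusted p = 0.000788). In kd.1 its log2 change was 0.09 (SE 0.07, limma adjusted p = 0.387), and it ran from 0 to 0.19 over the alternatives and libraries left out. The difference between the lines was -0.70 (SE 0.07, limma adjusted p = 0.000284), the largest among the 42 genes. The mean of the lines was lower by a log2 change of -0.26 (SE 0.06, limma adjusted p = 0.0163), but that call was lost after scaling to a common FPKM sum (limma adjusted p = 0.134) and without kd.1 replicate 1, kd.2 replicate 1 or kd.2 replicate 2 (0.0541, 0.0718 and 0.0586). PARP1 lies on chromosome 1 at 226360691-226408079 on the minus strand (GENCODE 29, GRCh38), and 2.33% of its 50-base stretches also occur in the pseudogene PARP1P1.

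OGG1, the glycosylase for oxidised guanine, was also lowest in kd.2. It measured 13.5 and 15.2 FPKM in control, 13.2 and 14.0 in kd.1, and 9.10 and 9.65 in kd.2. Both kd.2 libraries lay below all others, while the kd.1 libraries overlapped the controls. OGG1 fell 1.53-fold in kd.2, with a log2 change of -0.61 (SE 0.08, limma adjusted p = 0.0012), beside -0.08 (SE 0.08, limma adjusted p = 0.5) in kd.1. The difference between the lines was -0.53 (SE 0.08, limma adjusted p = 0.00176), and the mean of the lines fell by 0.34 (SE 0.07, limma adjusted p = 0.00816). On chromosome 3 (9749944-9788219, plus strand), 29% of OGG1's exonic bases overlap exons of CAMK1 on the other strand. CAMK1 fell in both lines, with log2 changes of -0.70 in kd.1 and -0.82 in kd.2 (limma adjusted p = 0.00669 and 0.00297; the first was 0.0523 without kd.1 replicate 1), and the sources used here do not give whether counting used strand. How reads from the shared stretch were assigned to the 2 genes is therefore unknown. CAMK1 had group means of 3.75 FPKM in control, 2.29 in kd.1 and 2.09 in kd.2.

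UNG measured 86.7 and 86.8 FPKM in control, 73.7 and 67.9 in kd.1, and 71.8 and 70.1 in kd.2. All 4 knockdown libraries lay below both controls, and the lines overlapped each other. UNG fell by 0.29 on the log2 scale in each line (SE 0.06; limma adjusted p = 0.0104 in kd.1 and 0.00898 in kd.2) and for their mean (SE 0.05, limma adjusted p = 0.00563). The call in kd.1 was lost without kd.1 replicate 2 (limma adjusted p = 0.12) and that in kd.2 without replicate 1 or 2 of kd.2 (0.0724 and 0.091). Scaled to a common FPKM sum both single calls were lost (0.0526 and 0.0663), while the call for the mean held in every alternative. No annotated gene overlaps the exons of UNG on chromosome 12 at 109097574-109110992.

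MUTYH, the glycosylase that removes adenine opposite oxidised guanine, measured 6.09 and 6.81 FPKM in control, 5.94 and 6.05 in kd.1, and 4.63 and 4.70 in kd.2. Every knockdown library lay below both controls, the kd.2 libraries furthest. MUTYH fell 1.37-fold in kd.2 (log2 change -0.46, SE 0.09, limma adjusted p = 0.00532), beside -0.10 (SE 0.09, limma adjusted p = 0.406) in kd.1. The fall in kd.2 was not called without kd.2 replicate 1 (limma adjusted p = 0.0561). The mean of the lines was -0.28 (SE 0.08, limma adjusted p = 0.0229) but lost its call when any library other than control replicate 1 was left out (0.0656 to 0.0803) and under a common FPKM sum (0.113). Of its exonic bases 14.1% overlap TOE1 on the other strand, which fell by 0.29 in kd.2 (limma adjusted p = 0.00882; 0.0832 and 0.0691 without kd.2 replicate 1 or 2).

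LIG3 and XRCC1 encode the ligase and the scaffold that seal the nick together. LIG3 measured 14.5 and 13.5 FPKM in control, 10.7 and 10.9 in kd.1, and 14.2 and 14.8 in kd.2. It was the member of this pathway that fell in kd.1 alone, by 0.37 on the log2 scale (SE 0.07, limma adjusted p = 0.00665), and it differed between the lines by 0.42 (SE 0.07, limma adjusted p = 0.00286). The fall in kd.1 was not called without kd.1 replicate 1 (limma adjusted p = 0.0583) or after scaling to a common sum (0.0584). LIG3 shares 30.5% of its exonic bases with RFFL on the other strand, and RFFL moved the other way between the lines (-0.50, limma adjusted p = 0.00578). XRCC1 ran from 17.6 to 22.01 FPKM, and its log2 change was 0.06 in kd.1 and -0.20 in kd.2, neither called. The remaining glycosylase, NEIL1, and the endonuclease APEX1 had log2 changes of 0.11 and -0.11 in kd.1 and of -0.26 and -0.15 in kd.2, none called.

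**Figure D3:**
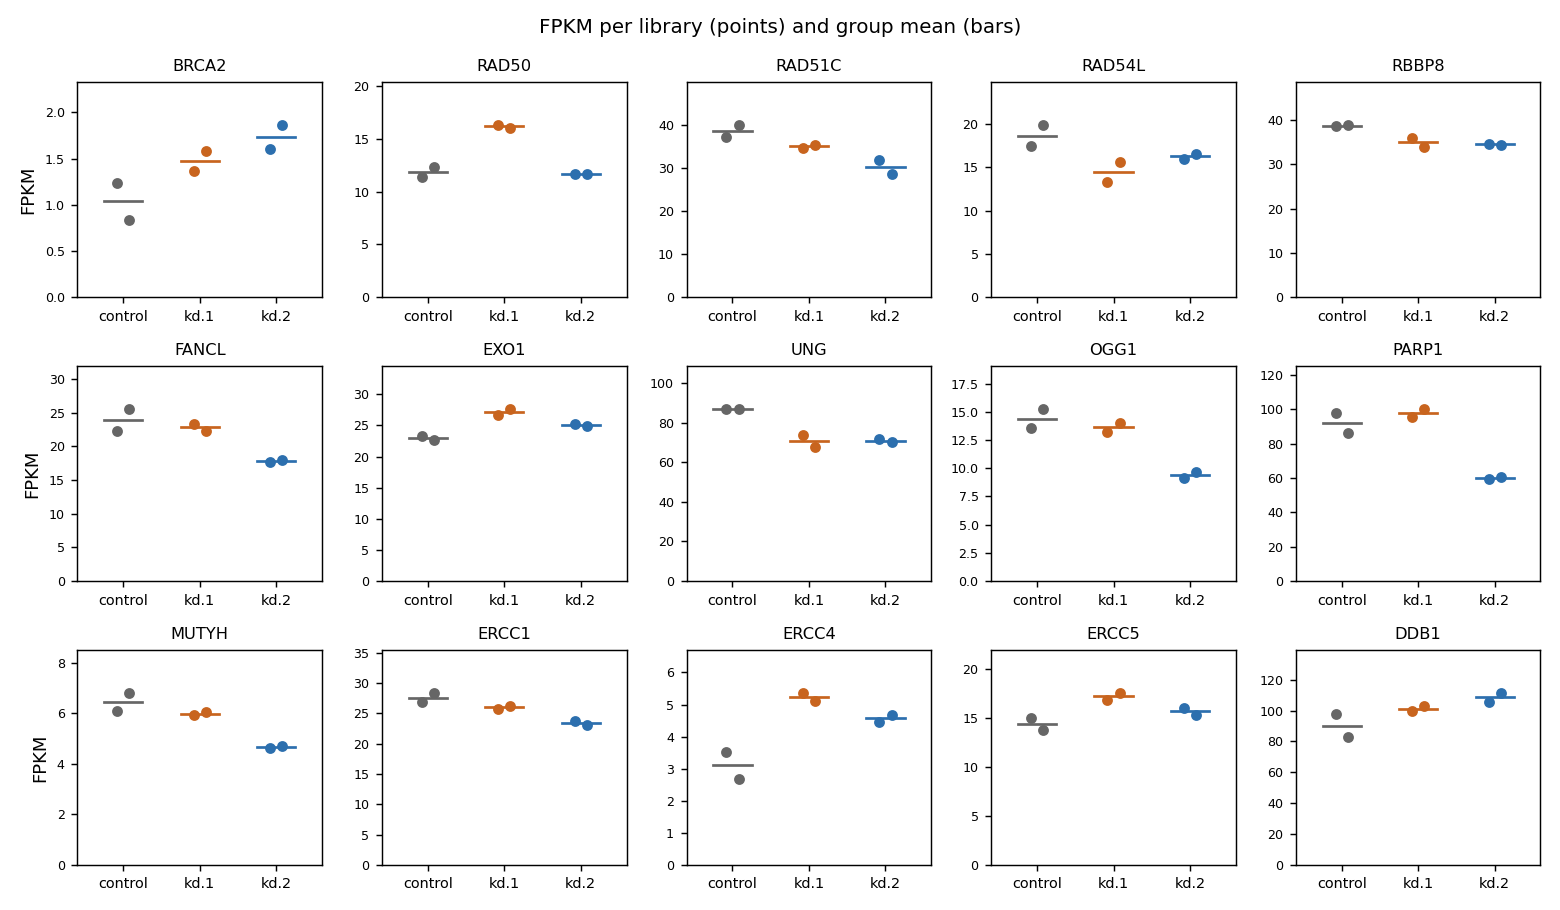
FPKM of the 15 repair genes given in full, 1 point per library and a bar at each group mean, each panel with its own axis from 0. OGG1, PARP1, MUTYH and FANCL are lowest in both kd.2 libraries, RAD50 is highest in both kd.1 libraries, and UNG and ERCC4 are displaced in all 4 knockdown libraries.

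The mismatch repair genes were called higher in kd.1 where they were called, and 2 of the 5 did not pass. In that line 3 rose and none fell, with a median log2 change of 0.24, while in kd.2 none was called and the median was -0.08. Of all tested genes 15.8% rose and 13.4% fell in kd.1, and 15.7% rose and 22.2% fell in kd.2. All 5 had both kd.1 libraries above both controls, an arrangement seen in 35.5% of all tested genes. All 5 also had both kd.2 libraries below both kd.1 libraries, as did 45.1% of all tested genes, and 2 of these differences were called (0 or 1 without any 1 of the kd.1 and kd.2 libraries). Under a common FPKM sum 4 rose in kd.1, and the median of kd.2 became 0.01. With either kd.1 or either kd.2 library left out, 0 of 5 were called in kd.1, all 5 estimates staying above 0. The 13 other mismatch repair genes did not follow: 1 rose and 2 fell in kd.1 (median log2 change 0.03), and 1 rose and 7 fell in kd.2 (median -0.21).

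EXO1, the exonuclease that removes the error-bearing strand, measured 23.4 and 22.6 FPKM in control, 26.7 and 27.6 in kd.1, and 25.2 and 24.9 in kd.2. All knockdown libraries lay above both controls. EXO1 rose 1.18-fold in kd.1 (log2 change 0.24, SE 0.06, limma adjusted p = 0.0203), and the change in kd.2 was 0.12 (SE 0.06, limma adjusted p = 0.139). The mean was 0.18 (SE 0.05, limma adjusted p = 0.0294). Both calls were lost when either library of kd.1 or of kd.2 was left out (limma adjusted p from 0.0587 to 0.158 in kd.1 and from 0.0746 to 0.109 for the mean).

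MSH6, which recognises single mismatches, was the most abundant of the 5, at 45.1 and 39.3 FPKM in control, 52.2 and 47.4 in kd.1, and 40.3 and 38.3 in kd.2. Its change in kd.1 of 0.24 missed the threshold (SE 0.08, limma adjusted p = 0.06), and it was lower in kd.2 than in kd.1 by 0.34 (SE 0.08, limma adjusted p = 0.0151), a call lost without kd.1 replicate 1 or either kd.2 library (0.075 to 0.124). PMS2, an endonuclease subunit of mismatch repair, had 16.9 and 16.2 FPKM in control, 19.5 and 19.6 in kd.1, and 15.5 and 15.8 in kd.2. Its log2 change was 0.23 (SE 0.06, limma adjusted p = 0.0264) in kd.1, and the lines differed by -0.32 (SE 0.06, limma adjusted p = 0.00615). Leaving out either library of kd.1 or of kd.2 ended both calls of PMS2 (0.0678 to 0.158 and 0.0514 to 0.0727). In PMS2, 34.1% of 50-base stretches also occur elsewhere, most in the pseudogene PMS2CL, so its level is uncertain. MSH3, which recognises insertion loops, rose by 0.30 in kd.1 (SE 0.09, limma adjusted p = 0.0316), a call lost when any library other than control replicate 1 was left out (0.0612 to 0.159).

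Nucleotide excision repair split in both directions. In kd.1, 3 of 7 genes rose (ERCC3, ERCC4 and ERCC5) and 2 fell (ERCC2 and XPA). In kd.2, ERCC4 and DDB1 rose and ERCC1 fell. These were 71.4% of the 7 in kd.1 and 42.9% in kd.2, beside 29.2% and 37.9% of all tested genes. The median log2 change was 0.17 in kd.1 and 0.12 in kd.2. Without any 1 of the kd.1 or kd.2 libraries, 1 rose and 0 fell in kd.1. In kd.2, 1 rose and 1 fell without either kd.1 library, and none was called without either kd.2 library.

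ERCC4 measured 3.53 and 2.69 FPKM in control, 5.36 and 5.12 in kd.1, and 4.47 and 4.66 in kd.2. All 4 knockdown libraries lay above both controls. Its rise of 0.75 on the log2 scale in kd.1 (1.68-fold, SE 0.13, limma adjusted p = 0.00369) held in every alternative. The rise in kd.2 was 0.55 (1.47-fold, SE 0.13, limma adjusted p = 0.0108) and was not called without kd.2 replicate 1 or 2 (0.0679 and 0.0823). The difference between the lines was -0.19 (SE 0.13, limma adjusted p = 0.267), and the mean rose by 0.65 (SE 0.11, limma adjusted p = 0.00359). ERCC4 lies on chromosome 16 at 13920157-13952345, where 25.7% of its exonic bases overlap the antisense gene AC010401.1.

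ERCC1, the non-catalytic partner of ERCC4, measured 26.8 and 28.3 FPKM in control, 25.8 and 26.2 in kd.1, and 23.7 and 23.1 in kd.2. All knockdown libraries lay below both controls, the side opposite to ERCC4. ERCC1 fell by 0.23 in kd.2 (SE 0.06, limma adjusted p = 0.0198) and its change in kd.1 was -0.09 (SE 0.06, limma adjusted p = 0.327). That fall was not called without kd.2 replicate 1 or 2 (0.104 and 0.144) or after either scaling (0.172 for the common sum and 0.0899 for the median ratio). The mean of the lines, -0.16 (SE 0.05, limma adjusted p = 0.0493), lost its call when any library other than control replicate 1 was left out (0.106 to 0.159). CD3EAP, which overlaps 28.6% of ERCC1's exonic bases on the other strand, rose by 0.49 in kd.2 (limma adjusted p = 0.00373; 0.0527 without kd.2 replicate 1).

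ERCC5, the nuclease of the 3′ incision, measured 15.0 and 13.8 FPKM in control, 16.8 and 17.5 in kd.1, and 16.0 and 15.3 in kd.2. All knockdown libraries lay above both controls. Its log2 change was 0.26 in kd.1 (SE 0.07, limma adjusted p = 0.0297), 0.12 in kd.2 (SE 0.07, limma adjusted p = 0.2) and 0.19 for the mean (SE 0.06, limma adjusted p = 0.0446). The call in kd.1 was lost without any 1 of the kd.1 and kd.2 libraries (0.0675 to 0.191) and that of the mean without any library other than control replicate 1 (0.0928 to 0.146). Of its 50-base stretches 99.9% are shared, with the readthrough gene BIVM-ERCC5, which is listed apart at about the same level in all groups (group means 7.83 to 8.19 FPKM), so the split of reads between them is uncertain.

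DDB1, the adaptor that binds damage with DDB2, measured 97.6 and 83.0 FPKM in control, 99.4 and 103 in kd.1, and 106 and 111 in kd.2. All knockdown libraries lay above both controls, which were the most spread pair. DDB1 rose by 0.27 in kd.2 (SE 0.08, limma adjusted p = 0.0331), beside 0.17 in kd.1 (SE 0.08, limma adjusted p = 0.154) and 0.22 for the mean (SE 0.07, limma adjusted p = 0.0439). Leaving out any 1 of the kd.1 and kd.2 libraries ended the call in kd.2 (0.0545 to 0.206), and leaving out any library other than control replicate 1 ended that of the mean (0.0839 to 0.147). The helicase genes of TFIIH moved apart in kd.1: ERCC3 had a log2 change of 0.19 (limma adjusted p = 0.0375) and ERCC2 one of -0.22 (limma adjusted p = 0.0489). XPA, the damage verifier, had -0.21 in kd.1 (limma adjusted p = 0.0489) and differed between the lines by 0.36 (SE 0.07, limma adjusted p = 0.00493). The kd.1 calls of ERCC2 and ERCC3 were lost without any 1 of the kd.1 and kd.2 libraries (0.103 to 0.279 and 0.0954 to 0.201), that of XPA without any library other than control replicate 1 (0.0625 to 0.218), and the difference of XPA without kd.2 replicate 1 (0.0701). Under a common FPKM sum ERCC2 and XPA also lost their kd.1 calls (0.306 and 0.27).

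Homologous recombination genes had small median changes in each line, but their share called for the mean was above that of all tested genes. Of 12 genes, RAD50 rose and RAD54L fell in kd.1, and BRCA2 rose and RAD51C and XRCC3 fell in kd.2. For the mean 2 rose and 3 fell. The shares called were 16.7% in kd.1 and 41.7% for the mean, beside 29.2% and 34.7% of all tested genes. The share called in kd.2 was below the 37.9% of all tested genes. The median log2 change was 0.08 in kd.1 and -0.08 in kd.2, and the second became 0.02 under a common FPKM sum. BRCA1, the ubiquitin ligase that promotes resection, ran only from 9.01 to 10.1 FPKM and its partner BARD1 from 2.25 to 2.87 FPKM, with no call in any comparison.

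RAD50, the ATPase of the MRE11-RAD50-NBN complex that tethers broken ends, measured 11.4 and 12.3 FPKM in control, 16.3 and 16.1 in kd.1, and 11.7 in each kd.2 library. Both kd.1 libraries lay above all others, and the kd.2 libraries fell between the controls. RAD50 rose 1.36-fold in kd.1 (log2 change 0.44, SE 0.07, limma adjusted p = 0.00282), and its change in kd.2 was -0.03 (SE 0.07, limma adjusted p = 0.797). The lines differed by -0.47 (SE 0.07, limma adjusted p = 0.00161). The mean of the lines, 0.21 (SE 0.06, limma adjusted p = 0.0306), rested on kd.1 and lost its call without any 1 of the kd.1 or kd.2 libraries (0.0881 to 0.0992). The other subunits, NBN and MRE11A (now named MRE11), were not called in any comparison, at 31.5 to 39.6 and 8.31 to 10.7 FPKM. GENCODE places 90.6% of RAD50's 50-base stretches also in a second gene, chiefly AC116366.3, which overlaps it on chromosome 5 (132556019-132646344, plus strand).

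BRCA2 measured 1.24 and 0.84 FPKM in control, 1.37 and 1.58 in kd.1, and 1.60 and 1.86 in kd.2. All knockdown libraries lay above both controls at this low level. Control replicate 2 lay under 1 FPKM, so BRCA2 passed the filter of 2 libraries only through the knockdown libraries. With a filter of 1 FPKM in all 6 libraries it was not tested, so its calls depend on the filter. BRCA2 rose 1.63-fold in kd.2 (log2 change 0.70, SE 0.18, limma adjusted p = 0.018), with 0.49 in kd.1 (SE 0.18, limma adjusted p = 0.0775) and 0.59 for the mean (SE 0.16, limma adjusted p = 0.0214). The kd.2 call was lost without control replicate 2 (0.0547), kd.2 replicate 1 (0.0685) or kd.2 replicate 2 (0.13). That of the mean was lost without control replicate 2 (0.111), kd.1 replicate 2 (0.0569) or kd.2 replicate 2 (0.0786). PALB2, which brings BRCA2 to BRCA1, ran from 10.3 to 11.8 FPKM with no call.

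RAD51C, which acts in strand exchange, measured 37.2 and 39.9 FPKM in control, 34.6 and 35.3 in kd.1, and 31.9 and 28.5 in kd.2. The groups did not overlap, control lying highest and kd.2 lowest. RAD51C fell by 0.35 in kd.2 (SE 0.07, limma adjusted p = 0.00754), beside -0.14 in kd.1 (SE 0.07, limma adjusted p = 0.186) and -0.25 for the mean (SE 0.06, limma adjusted p = 0.0192). The kd.2 call was lost without kd.2 replicate 2 (0.0877). That of the mean was lost without control replicate 2, kd.1 replicate 1 or kd.2 replicate 2 (0.0516, 0.0582 and 0.0804) and under a common FPKM sum (0.0948).

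RAD54L, a DNA-dependent motor protein, measured 17.5 and 19.9 FPKM in control, 13.3 and 15.6 in kd.1, and 15.9 and 16.6 in kd.2. Every knockdown library lay below both controls. RAD54L fell by 0.37 in kd.1 (SE 0.09, limma adjusted p = 0.0221), beside -0.20 in kd.2 (SE 0.09, limma adjusted p = 0.133) and -0.28 for the mean (SE 0.08, limma adjusted p = 0.0303). Both calls were lost without control replicate 2, kd.1 replicate 1 or either kd.2 library (0.0523 to 0.164 in kd.1, 0.0777 to 0.125 for the mean) and under a common FPKM sum (0.0566 and 0.109). RBBP8, the CtIP resection factor, measured 38.7 and 38.9 FPKM in control, 36.1 and 34.1 in kd.1, and 34.7 and 34.4 in kd.2. Its mean change of -0.15 (SE 0.05, limma adjusted p = 0.0485) was small, and the call was lost when any library other than control replicate 1 was left out (0.0542 to 0.171) and under a common FPKM sum (0.45).

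XRCC3, which works with RAD51C, measured 8.44 and 8.66 FPKM in control, 8.93 and 10.2 in kd.1, and 6.37 and 7.24 in kd.2. The kd.1 libraries lay above both controls and the kd.2 libraries below. XRCC3 fell by 0.33 in kd.2 (SE 0.10, limma adjusted p = 0.0279) and differed between the lines by -0.48 (SE 0.10, limma adjusted p = 0.00583). The first call was lost without either kd.2 library (0.206 and 0.058) and under both scalings (0.139 and 0.0663), the second without kd.1 replicate 2 (0.0623) or kd.2 replicate 1 (0.073). Of XRCC3's exonic bases 76.7% overlap KLC1 on the other strand, which had group means of 24.5 to 27.5 FPKM and no call.

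None of the 7 Fanconi genes was called in kd.1, where their log2 changes ran from -0.14 to 0.12. In kd.2, FANCL and FANCG fell and none rose, where 22.2% of all tested genes fell and 15.7% rose. FANCL, the ubiquitin ligase subunit that modifies FANCD2 and FANCI, measured 22.3 and 25.5 FPKM in control, 23.3 and 22.3 in kd.1, and 17.6 and 18.0 in kd.2. Both kd.2 libraries lay below all others, and the kd.1 libraries overlapped the controls. FANCL fell 1.34-fold in kd.2 (log2 change -0.42, SE 0.08, limma adjusted p = 0.00448), beside -0.07 (SE 0.08, limma adjusted p = 0.549) in kd.1, and the lines differed by -0.35 (SE 0.08, limma adjusted p = 0.00903). The fall was not called without kd.2 replicate 1 (0.0528), nor the difference without kd.1 replicate 1 (0.0708) or either kd.2 library (0.0838 and 0.0634). The mean of -0.24 (SE 0.07, limma adjusted p = 0.0242) lost its call when any library other than control replicate 1 was left out (0.052 to 0.0868) and under a common FPKM sum (0.108). VRK2, which overlaps 19.7% of FANCL's exonic bases on the other strand, also differed between the lines, by -0.62 (limma adjusted p = 0.000738).

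FANCG, a core complex subunit, had a log2 change of -0.21 in kd.2 (SE 0.07, limma adjusted p = 0.0459), which was lost when any library other than control replicate 2 was left out (0.0668 to 0.261) and under both scalings (0.39 and 0.127). The substrates FANCI and FANCD2 measured 32.9 to 40.4 and 11 to 13.9 FPKM and were not called in any comparison. FANCA, FANCC and FANCE, all of the core complex, were not called either, at 25.6 to 31.2, 8.66 to 9.99 and 6.90 to 7.74 FPKM.

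Among the checkpoint kinases none was called in kd.1. Of all tested genes 29.2% were called in kd.1 and 37.9% in kd.2. In kd.2, ATR, the kinase that senses single-stranded DNA, measured 10.4 and 11.2 FPKM beside 9.34 and 7.37 in control and 7.94 and 7.92 in kd.1. Its log2 change of 0.38 in kd.2 (SE 0.11, limma adjusted p = 0.0275) was lost without control replicate 2 (0.0546) or either kd.2 library (0.0964 and 0.169). CHEK1, the kinase that ATR activates, measured 23.6 in each kd.2 library beside 29.3 and 26.4 in control and 30.4 and 28.9 in kd.1. CHEK1 fell by 0.24 in kd.2 (SE 0.07, limma adjusted p = 0.0281), a call lost without any 1 of the kd.1 and kd.2 libraries (0.0509 to 0.145) and under a common FPKM sum (0.273). The 2 kinases thus moved apart in kd.2, and CHEK2, the kinase downstream of ATM, was not called, at 16.2 to 19.4 FPKM.

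**Figure D4:**
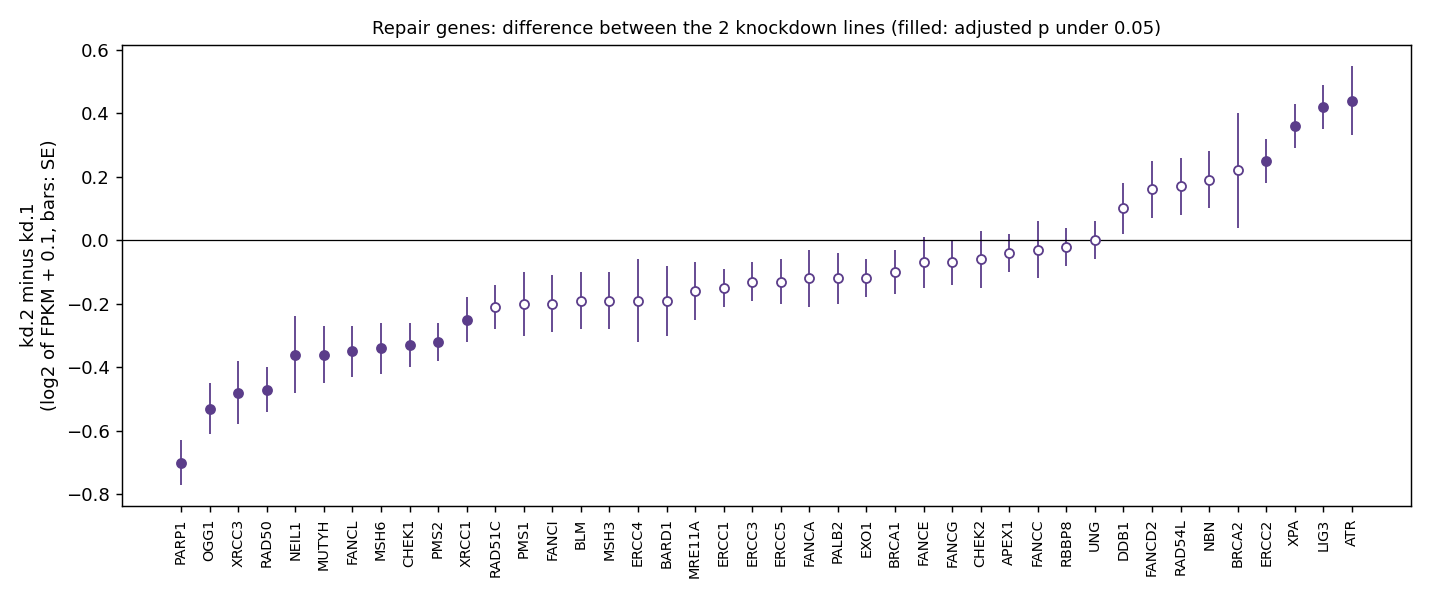
Log2 difference between the lines (kd.2 minus kd.1) for each of the 42 repair genes in order of size, with bars for the limma SE and filled points for an adjusted p under 0.05. The 11 genes lower in kd.2 run from PARP1 at -0.70 to XRCC1 at -0.25, and the 4 higher genes run from ERCC2 at 0.25 to ATR at 0.44.

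Members known to act as a pair or complex did not always keep the same ratio of levels. The pairs were chosen after their values were seen, and the FPKM ratios are given as a description. The ratio of ERCC4 to ERCC1 was 0.132 and 0.0950 in control, 0.208 and 0.196 in kd.1, and 0.188 and 0.202 in kd.2, higher in all knockdown libraries. The ratio of LIG3 to XRCC1 was 0.740 and 0.635 in control, 0.488 and 0.533 in kd.1, and 0.809 and 0.820 in kd.2, so the lines lay on opposite sides of control. The ratio of RAD50 to NBN was 0.303 and 0.392 in control, 0.458 and 0.486 in kd.1, and 0.294 and 0.303 in kd.2. The kd.1 libraries were the highest for that pair. The ratio of FANCI to FANCD2 was 3.15 and 3.0 in control, 3.34 and 3.17 in kd.1, and 2.57 and 2.48 in kd.2, lowest in kd.2. For BRCA1 to BARD1 it stayed between 3.42 and 4.0 over all libraries. RAD51C to XRCC3 gave 4.41 and 4.6 in control, 3.88 and 3.46 in kd.1, and 5.01 and 3.93 in kd.2. BRCA2 to PALB2 gave 0.105 and 0.0795 in control, 0.124 and 0.139 in kd.1, and 0.153 and 0.181 in kd.2.

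**Figure D5:**
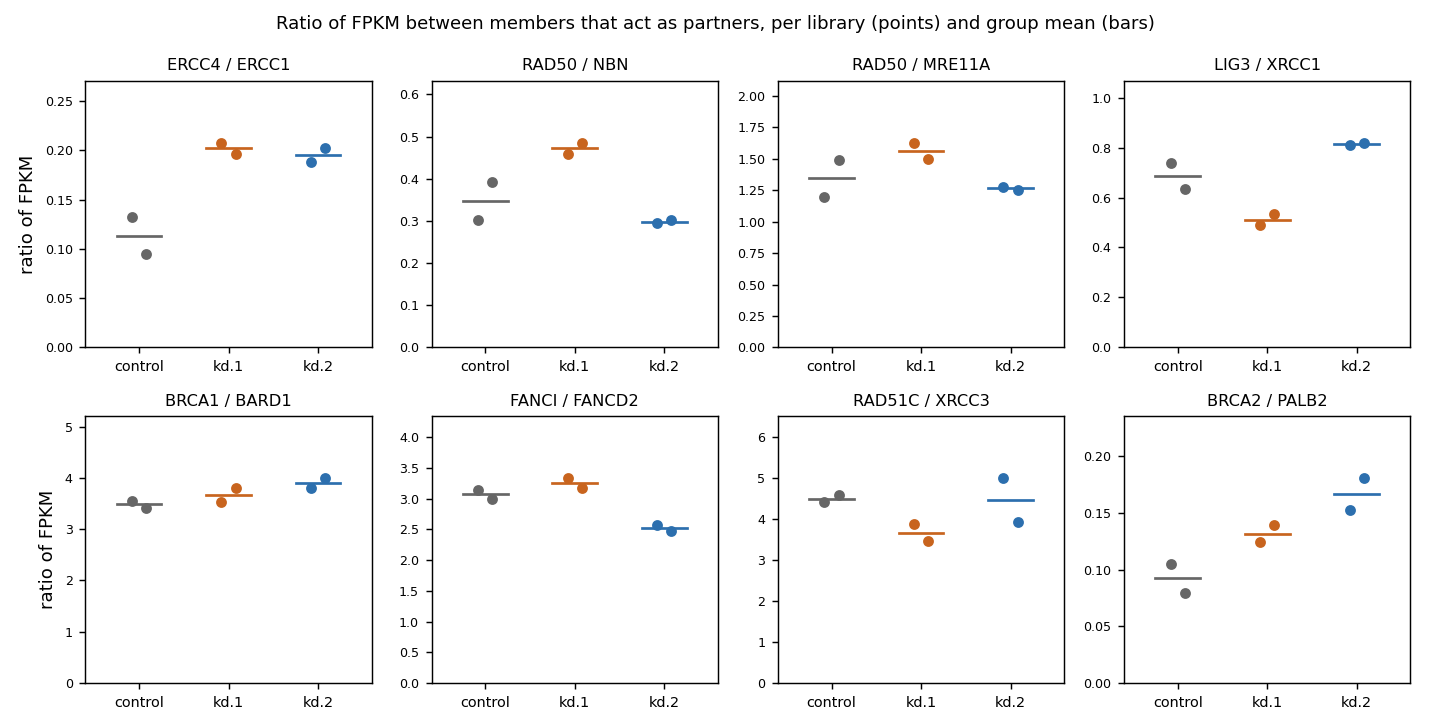
Ratio of FPKM between repair genes that act as partners, 1 point per library and a bar at each group mean, each panel with its own axis from 0. The ratio of ERCC4 to ERCC1 is at most 0.132 in control and at least 0.188 in the knockdown libraries, and that of LIG3 to XRCC1 is lowest in kd.1.

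Another 97 genes of the same pathways were all tested. In kd.1, 9 rose and 10 fell, in kd.2 10 rose and 22 fell, and for the mean 6 rose and 17 fell. The shares called were 19.6%, 33.0% and 23.7%, beside 29.2%, 37.9% and 34.7% of all tested genes, all 3 shares being smaller than those of the tested genes at large. DDB2, the damage sensor that binds DDB1 and a known p53 target, fell by 0.44 in kd.1 (SE 0.07, limma adjusted p = 0.00194) and by 0.94 in kd.2 (SE 0.07, limma adjusted p = 9.11e-05), from 27.2 and 28.6 FPKM in control to 20.1 and 21.0 in kd.1 and 14.6 and 14.3 in kd.2. Its partner DDB1 was higher than control in the same libraries. PCNA, the sliding clamp of repair synthesis and listed here with mismatch repair, fell by 0.48 in each line (limma adjusted p = 0.00139 and 0.00133), and LIG1, the ligase that works with it in the same pathway list, by 0.27 and 0.47 (0.0184 and 0.00134; the first was 0.127 and 0.0919 without kd.1 replicate 1 or 2 and 0.139 under a common FPKM sum). TDG, a glycosylase for mismatched thymine, rose by 0.21 in kd.1 and 0.56 in kd.2 (limma adjusted p = 0.0356 and 0.000546), the first call being lost without any 1 of the kd.1 or kd.2 libraries (0.0862 to 0.2). BRCC3, the deubiquitinase of a BRCA1 complex, rose by 0.54 and 0.45 (limma adjusted p = 0.000733 and 0.00161). RPA3, a subunit of the single-strand binding protein, fell by 0.44 and 0.50 (limma adjusted p = 0.011 and 0.00521; 0.0609 without kd.1 replicate 1 and 0.0586 without kd.2 replicate 2).

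Further genes named by the same rule moved as follows. CETN2, the centrin of the XPC complex, fell by 0.32 and 0.42 (limma adjusted p = 0.00868 and 0.00262; the first was 0.0751 without kd.1 replicate 1). NTHL1, a glycosylase for oxidised pyrimidines, had log2 changes of -0.25 and -0.24 (limma adjusted p = 0.0398 and 0.0375), each lost without any library other than control replicate 1 (0.0642 to 0.179 and 0.0639 to 0.216). ATM, the kinase activated by strand breaks, rose by 0.42 and 0.36 (limma adjusted p = 0.0167 and 0.023), the first lost without either kd.1 library (0.0755 and 0.101) and the second without either kd.2 library (0.123 and 0.118). UBE2T, the conjugating enzyme that works with FANCL, fell by 0.43 in kd.2 (limma adjusted p = 0.00209), beside -0.09 in kd.1. FANCM, the translocase that recruits the core complex, rose by 0.36 in kd.2 (limma adjusted p = 0.0219; 0.0749 and 0.166 without kd.2 replicate 1 or 2), beside 0.30 in kd.1 (limma adjusted p = 0.051). CDC25A, the phosphatase that CHEK1 restrains, rose by 0.23 in kd.2 (limma adjusted p = 0.0272), a call lost without any 1 of the kd.1 or kd.2 libraries (0.0593 to 0.192).

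Because many repair genes follow the cell cycle, 26 S phase and proliferation genes were set beside them. In kd.1, 2 of these rose and 9 fell, in kd.2 3 rose and 7 fell, beside 15.8% higher and 13.4% lower of all tested genes in kd.1 and 15.7% and 22.2% in kd.2. Of the 26, 42.3% were called in kd.1 and 38.5% in kd.2, and their median log2 change was -0.02 and -0.09. Between the lines 8 were higher in kd.2 and 4 lower (46.2% called), beside 11.9% and 20.3% of all tested genes. The 42 repair genes had 4 higher and 11 lower there. Their summed FPKM was 2450 and 2370 in control, 2300 in each kd.1 library, and 2220 and 2250 in kd.2. As deposited, both knockdown groups lay below both controls. Per 1000 FPKM of each library's total the sum was 4.62 and 4.12 in control, 4.39 and 4.41 in kd.1, and 4.28 and 4.39 in kd.2, so that all knockdown libraries lay between the controls. Their part in the repair gene results was not tested.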

How the data were processed

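Total RNA of 6 libraries, 2 per group, was sequenced. Per the submitters' processing notes, RSEM 1.2.12, HISAT2 2.0.4 and Bowtie2 2.2.5 were used with GRCh38.p11 and hg38, in roles not stated, and the strand setting of the counting is not given in the sources used here. The authors deposited 1 table whose values were taken as FPKM; this was inferred from the values, which are not whole numbers and have 2 decimals, and no label states it. Library depths could not be worked out from the steps between low values, so no counting intervals could be set.

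Of 21372 features, 1869 named BGI_novel were left out. A gene needed 1 FPKM in 2 or more libraries, and the 10851 that had it were tested on log2(FPKM + 0.1) with limma 3.58.1 in R 4.3.3, using 1 mean per group and moderation that was robust and followed an intensity trend (residual degrees of freedom 3, or 8.64 at the median once moderated). P-values were adjusted by Benjamini-Hochberg over all tested genes in each contrast: each line or their mean set against control, and kd.2 set against kd.1. Fold changes are on the log2(FPKM + 0.1) scale, which understates the change of low genes. An exact permutation test cannot reach 0.05 with 2 libraries per group, so none is given. The fit was run on simulated data with normal noise of the fitted spread and changes set in kd.1 alone. That run checked the fit itself and does not test the calls given here.

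The repair genes and all gene lists were chosen with earlier results of these data known. Genes were given in full where they were called for the mean of both lines, or in both lines with 1 sign, or between the lines with a difference of at least 0.5 on the log2 scale. Other members are given by ranges, and those that differed between lines or led a pathway were also named after their values were seen. Of the other repair genes, up to 2 per pathway with the smallest adjusted p for the mean were named. Gene positions, overlaps and shared 50-base stretches came from GENCODE 29 on GRCh38, and promoters from RefSeq on GRCh38.p14. Alternatives varied the pseudocount, filter, scaling, moderation, groups in the fit, replicate block and libraries kept.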

Additional observations from a re-analysis of the deposited data

Results flagged for a closer look

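For 15 of the 42 repair genes the change in kd.2 differed from the change in kd.1, tested as kd.2 against kd.1 in limma at an adjusted p under 0.05, where 32.2% of all tested genes differed. The values are log2 differences, kd.2 minus kd.1.

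In base excision and single-strand break repair, PARP1 (-0.70), OGG1 (-0.53), MUTYH (-0.36), NEIL1 (-0.36) and XRCC1 (-0.25) were lower in kd.2, and LIG3 (0.42) was higher. In homologous recombination, XRCC3 (-0.48) and RAD50 (-0.47) were lower in kd.2. FANCL (-0.35) was the Fanconi gene that differed. In mismatch repair, MSH6 (-0.34) and PMS2 (-0.32) were lower in kd.2. In nucleotide excision repair, ERCC2 (0.25) and XPA (0.36) were higher in kd.2. Of the checkpoint kinases, CHEK1 (-0.33) was lower in kd.2 and ATR (0.44) higher.

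Of these 15 differences, 4 were called in every alternative and without any single library, namely those of RAD50, OGG1, PARP1 and LIG3. The other 11 were each lost without at least 1 library. Without kd.2 replicate 1, 11 were lost (limma adjusted p from 0.0701 to 0.255), and without kd.2 replicate 2, 9 were lost (0.0514 to 0.173). Without kd.1 replicate 1, 9 were lost (0.0521 to 0.206), and without kd.1 replicate 2, 7 were lost (0.0578 to 0.275). XRCC1, NEIL1, MUTYH, ERCC2, ATR and PMS2 were lost in each of these.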

How the results depend on the processing

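Depth is unknown, so counting error was not separated from the spread between 2 libraries per group. The counts of repair genes called were 12 in kd.1, 14 in kd.2, 15 between the lines and 15 for the mean. With no filter on low values they were 6 in kd.1, 9 in kd.2 and 7 for the mean. Scaled to a common FPKM sum, kd.2 had 9. With only the groups of the contrast in the fit, kd.1 had 4 and the difference between the lines 24. With neither trend nor robust moderation the mean had 9. With 1 library left out the counts ran from 3 to 21 in kd.1, 3 to 22 in kd.2, 4 to 23 between the lines and 3 to 24 for the mean. The cause of these shifts was not tested; leaving out a library also left 1 group with a lone library, assumed to vary like the others. The remaining settings gave counts within 1.5 times those reported, and no call changed direction under any setting. Replicate numbers did not pair the libraries (correlation of their differences 0.022, -0.0874 and 0.183 between groups); with the replicate number as a block the counts were 11, 12, 14 and 12. Common-sum scaling moved the median of all genes by 0.02 to 0.1 on the log2 scale.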
